A study of Mus musculus with 36 samples.

Results

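The 10 iron handling genes Hamp, Tfrc, Tfr2, Trf, Slc40a1, Slc11a2, Fth1, Ftl1, Cp and Hfe were followed through visceral white adipose tissue (visWAT) and liver of mice on 2 diets and of 2 genotypes. They were taken by gene symbol from the expression table, 10 of its 56748 genes. Gene positions are given on mm39 (GRCm39), as the table has them.

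Iron travels in blood bound to transferrin (Trf), enters cells through transferrin receptor 1 (Tfrc) and the endosomal iron transporter DMT1 (Slc11a2), is stored inside a shell of ferritin heavy and light chains (Fth1, Ftl1), and leaves through ferroportin (Slc40a1), the known iron exporter, helped by the ferroxidase ceruloplasmin (Cp). Hepatocytes secrete hepcidin (Hamp), a peptide hormone that blocks ferroportin and so lowers iron release into blood, and they set its level with the help of transferrin receptor 2 (Tfr2) and the haemochromatosis protein HFE (Hfe). In adipose tissue, macrophages are known to take up, store and recycle iron beside the adipocytes.

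The libraries came from 18 male C57BL/6J mice, with visWAT (labelled epididymal adipose tissue) and liver taken from the same mice, which gives 36 libraries of polyadenylated RNA. WT mice carried loxP-flanked Mlkl alleles without Cre. MlklAdi-KO mice carried the same alleles with an Adipo-Cre transgene that deletes Mlkl, a pseudokinase of necroptosis, in mature adipocytes and not in the other cells of the tissue. From 16 weeks of age the mice received a normal chow diet (NCD, 4 mice per genotype) or a high-fat diet (HFD, 5 mice per genotype) for 16 weeks. Levels are FPKM (fragment counts divided by gene length in kilobases and by a library size). A comparison between genes depends on the lengths used, which for some genes differed from the canonical transcript. They were 3469, 1340 and 410 bases for Fth1, Ftl1 and Hamp, against canonical transcripts of 929, 969 and 684 bases. The size behind the FPKM values was not the plain total of reads on genes. Its ratio to that total lay between 0.737 and 0.812 for liver libraries and between 1.01 and 1.4 for visWAT libraries. Compared with division by the plain total, this lowers visWAT levels and raises liver levels. Differences are differences of mean log2(FPKM + 1), a scale that understates changes of low genes. Each test was limma over all genes with a mean of at least 0.5 FPKM in the mice compared, with Benjamini-Hochberg adjustment, and a gene is said to have risen or fallen where its adjusted p was under 0.05. Values in brackets after a difference are the standard error (SE) and this adjusted p.

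Reads on genes numbered 20875463 to 30322171 per library. The deleted gene, Mlkl, was 1.96 to 2.72 FPKM in all MlklAdi-KO visWAT libraries and 4.58 to 6.28 FPKM in HFD-fed WT mice, while in NCD-fed WT mice the library labelled mouse 182, at 2.29 FPKM, went against its label, beside 5.11, 4.63 and 3.91 in the others. The visWAT library of WT NCD mouse 183 held seminal vesicle transcripts, with a sum of 247986 FPKM over 5 markers against 327 in mouse 182, 82 in MlklAdi-KO mouse 197 and at most 4.5 in the other visWAT libraries. Hepatocyte markers were high in visWAT of HFD-fed MlklAdi-KO mouse 156, where Alb, the gene of serum albumin, was 459.6 FPKM. The sum of 8 adipocyte markers was 4451 FPKM or more in every visWAT library and 118 FPKM or less in every liver library. Where leaving out mouse 182, 183 or 156 changed a call on a member, the value without it is given.

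Part of the control of these genes is written in their RNA. Iron regulatory proteins bind a short hairpin, the iron responsive element (IRE), when iron is scarce: in the 5′ untranslated region (UTR) it blocks translation, and in the 3′ UTR it protects the transcript from decay. A search of the GENCODE vM39 transcripts (a C, 5 bases, CAGTGN, and 5 bases that pair with the first 5) found 7 such elements in 4 of the 10 genes, against 290 of 22263 protein-coding genes (1.3%) with at least 1 in a UTR. They are shown as the matches to this strict pattern, which requires 5 paired bases on each side. It does not find elements with an unpaired base in the stem, such as the known one of Slc11a2, so that a member without a match may still carry this control. The sequences are in lower case with the bulged C and the hairpin loop in capitals, 5′ to 3′, with GRCm39 positions. Fth1, Ftl1 and Slc40a1 had 1 match each in the 5′ UTR, and Tfrc had 4 in the 3′ UTR. A member with matches may likewise hold further elements that the pattern misses.
Fth1, chr19:9960096-9960124, plus strand: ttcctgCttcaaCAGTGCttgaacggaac
Ftl1, chr7:45109203-45109231, minus strand: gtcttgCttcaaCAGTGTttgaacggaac
Slc40a1, chr1:45964625-45964653, minus strand: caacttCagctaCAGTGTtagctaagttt
Tfrc, chr16:32450037-32450065, plus strand: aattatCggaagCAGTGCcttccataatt
Tfrc, chr16:32450416-32450444, plus strand: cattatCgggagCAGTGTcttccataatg
Tfrc, chr16:32450481-32450509, plus strand: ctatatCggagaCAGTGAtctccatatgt
Tfrc, chr16:32450528-32450556, plus strand: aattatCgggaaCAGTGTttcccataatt
The search required CAGTG in the loop, so all 7 have it. The stems were free to vary, and those of the ferritin chains resemble each other and differ from those of Tfrc. RNA abundance reports decay and transcription and does not show translation, so that the block by the 5′ elements cannot be read from these libraries.

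Which tissue carried which transcript was compared in WT mice. On NCD, 8 of 10 members were lower in visWAT than in liver and none was higher, while 65.5% of all genes tested passed (34% lower and 31.5% higher). On HFD 7 were lower and 1 was higher, while 84.6% of all genes passed (43% lower and 41.6% higher). The order of abundance also differed. By FPKM, Trf was highest in NCD-fed WT liver, followed by Ftl1, Hamp and Fth1, and in NCD-fed WT visWAT the order was Trf, Ftl1, Fth1 and Hfe. These orders depend on the gene lengths used. In reads, Fth1 was above Ftl1 in visWAT of each of these mice (32591 to 46159 against 20853 to 25756). In their livers Fth1 had fewer reads than Ftl1 (26972 to 41282 against 37393 to 65985).

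Hamp (ENSMUSG00000050440, chr7:30641793-30643457, minus strand) was a liver transcript. In liver of NCD-fed WT mice 165, 180, 182 and 183 it was 1047, 897, 1254 and 1262 FPKM, from 6887 to 10656 reads. In visWAT of the same mice it was 0.206, 0, 0.09 and 0.478 FPKM, from 0 to 6 reads. The difference of visWAT minus liver was −9.87 (SE 0.16, adjusted p = 2.88e-10). Its regulators followed in part. Tfr2 (ENSMUSG00000029716, chr5:137568102-137585743, plus strand) was 101 to 143 FPKM in liver and 0.791 to 4.7 FPKM in visWAT of NCD-fed WT mice, a difference of −5.61 (SE 0.342, adjusted p = 1.82e-06), and the groups did not overlap. Hfe (ENSMUSG00000006611, chr13:23886017-23894837, minus strand) showed the opposite order on HFD, with 32.6 to 37.9 FPKM in visWAT and 15.4 to 17.6 FPKM in liver, a difference of 1.08 (SE 0.0546, adjusted p = 3.57e-09). On NCD its difference of 0.31 (SE 0.177, adjusted p = 0.15) did not pass the test, and without mice 182 and 183 it was 0.32 with an adjusted p of 0.0223 in limma.

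The carrier, the exporter and the ferroxidase were lower in visWAT, although none of them was absent there. Trf (ENSMUSG00000032554, chr9:103081200-103107643, minus strand) was 5122, 5504, 6964 and 5494 FPKM in liver and 1121, 1116, 914 and 669 FPKM in visWAT of NCD-fed WT mice, so that transferrin RNA was abundant in visWAT of every mouse. Its difference was −2.61 (SE 0.245, adjusted p = 2.56e-05). Slc40a1 (ENSMUSG00000025993, chr1:45947228-45965683, minus strand) was 12.9 to 17.5 FPKM in liver and 0.472 to 1.2 FPKM in visWAT (−3.31, SE 0.151, adjusted p = 2.9e-07), and Cp (ENSMUSG00000003617, chr3:20011218-20063309, plus strand) was 129 to 147 FPKM in liver and 11.1 to 18.3 FPKM in visWAT (−3.06, SE 0.157, adjusted p = 6.24e-07). In each case every liver library was above every visWAT library.

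The ferritin chains and the uptake genes were closer. On HFD the difference between tissues was −0.12 (SE 0.083, adjusted p = 0.202) for Fth1 and −0.17 (SE 0.13, adjusted p = 0.245) for Ftl1, neither past the test, whereas on NCD both were lower in visWAT, with differences of −0.49 (SE 0.137, adjusted p = 0.0123) and −1.68 (SE 0.181, adjusted p = 5.86e-05). Tfrc (ENSMUSG00000022797, chr16:32427738-32451612, plus strand) was 3.59 to 6.1 FPKM in liver and 1.77 to 4.91 FPKM in visWAT on NCD, with ranges that overlapped, and its difference of −0.70 (SE 0.26, adjusted p = 0.0423) was lost when any of 6 libraries was left out (adjusted p of at most 0.109). Without the visWAT library of mouse 183 Slc11a2 was lower in visWAT on NCD (−0.75, adjusted p = 0.000282), and without that of mouse 155 Ftl1 was lower on HFD (−0.26, adjusted p = 0.0454). These small tissue differences depended on how libraries were scaled, and the library sizes behind the FPKM values lower visWAT against liver. With every library set to the same sum (TPM scale), the median difference of all genes moved by 0.56 on NCD and 0.97 on HFD, and the genes past the test split into 5722 higher and 2145 lower on NCD and 10525 higher and 2812 lower on HFD. On HFD Tfrc (0.52), Slc11a2 (0.58), Fth1 (0.98) and Ftl1 (0.93) were then all higher in visWAT. Ftl1 on NCD stayed lower in visWAT on the TPM scale (−1.03, adjusted p = 0.0337). Against that shift the order of Tfrc, Slc11a2 and Fth1 on both diets, and of Ftl1 on HFD, was not settled, while Hamp, Tfr2, Slc40a1, Trf and Cp stayed lower in visWAT on both scales. With the mouse as a block, the count of members past the test was 9 on NCD (with Slc11a2 added) and 8 on HFD.

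**Figure D1:**
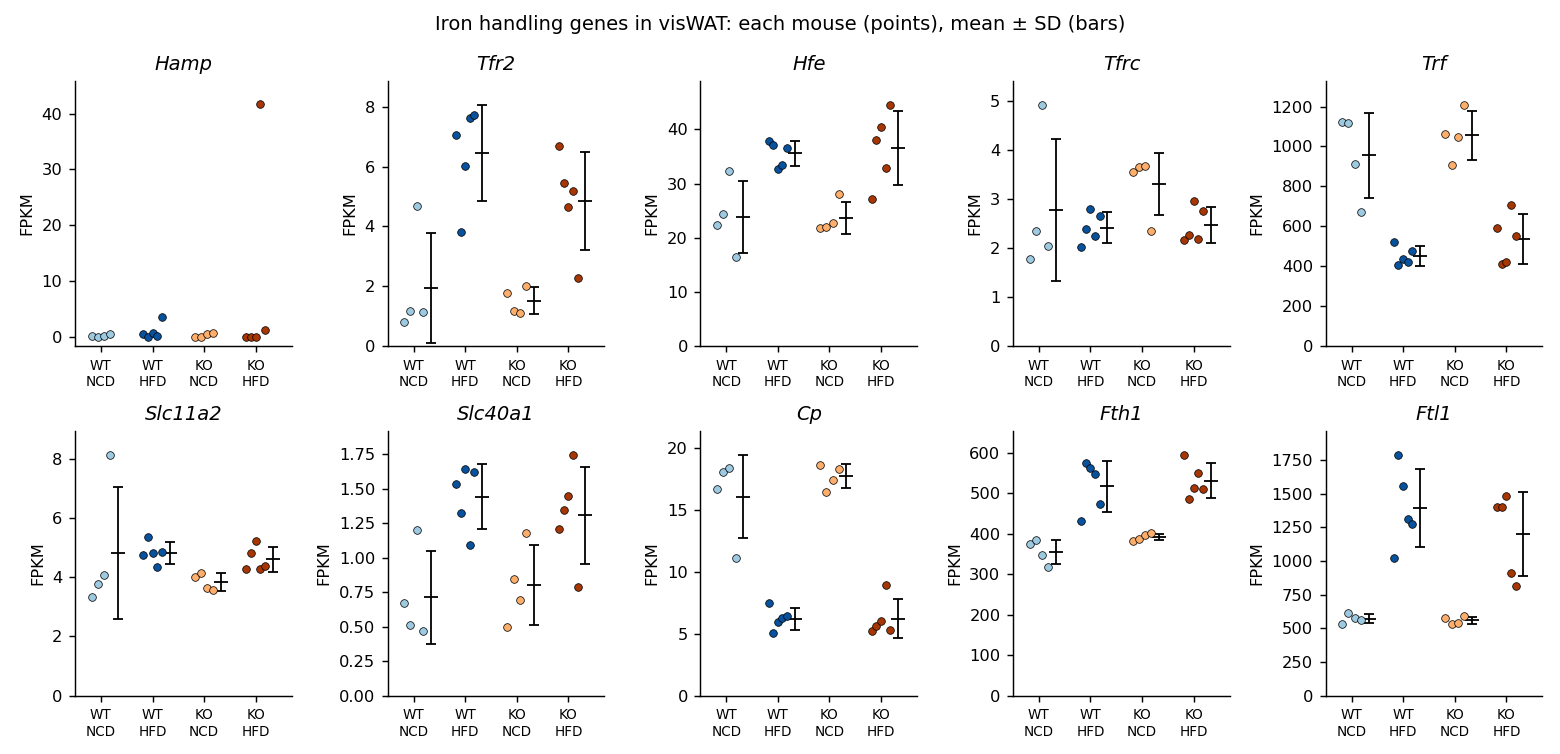
FPKM of each member in visWAT, with 1 point per mouse in 4 groups and the mean ± SD beside the points (Hamp without bars). Ftl1, Fth1, Tfr2 and Hfe stand higher and Trf and Cp lower on HFD in both genotypes, and Hamp is near 0 except in MlklAdi-KO mouse 156 at 41.7 FPKM.

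The HFD changed most of these genes in visWAT. In WT mice 7 of 10 members passed the test, 5 higher and 2 lower on HFD, against 37.8% of all 14161 genes tested (21.9% higher and 15.8% lower). In MlklAdi-KO mice 7 passed as well, 5 higher and 2 lower, against 43.7% of 14026 genes (23.3% and 20.3%). The median difference over the 10 members was 0.50 in WT and 0.39 in MlklAdi-KO mice, and that over all genes tested −0.01 and 0.01. The genes that passed in both genotypes were Ftl1, Fth1, Tfr2 and Hfe upward and Trf and Cp downward. In bulk tissue a lower level from fewer cells of a type and one from less RNA per cell cannot be told apart, and this holds for every visWAT value here.

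Ferritin light chain RNA rose most among the abundant members. Ftl1 (ENSMUSG00000050708, chr7:45107368-45109308, minus strand) was 535, 618, 575 and 565 FPKM in NCD-fed WT mice and 1027, 1789.8, 1556, 1315 and 1278 FPKM in HFD-fed WT mice. In MlklAdi-KO mice it was 576, 535, 541 and 589 FPKM on NCD and, in mice 151, 152, 153, 156 and 157, 1399.7, 1403, 1484, 908 and 817 FPKM on HFD. Every HFD-fed mouse lay above every NCD-fed mouse of both genotypes, and MlklAdi-KO mice 156 and 157 were the lowest of the HFD-fed mice. The difference was 1.26 (SE 0.17, adjusted p = 0.000377) in WT and 1.06 (SE 0.193, adjusted p = 0.00269) in MlklAdi-KO mice. The processed pseudogene Ftl1-ps1 moved alike, from 12.5 ± 0.889 to 33.7 ± 6.76 FPKM in WT mice (SD, n = 4 and 5), and reads of such a copy and of Ftl1 may have been exchanged in the counting.

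Ferritin heavy chain RNA, which encodes the chain with ferroxidase activity, rose less. Fth1 (ENSMUSG00000024661, chr19:9957962-9962462, plus strand) was 374, 384, 347 and 317 FPKM in NCD-fed and 430.5, 575, 562, 547 and 473 FPKM in HFD-fed WT mice, and in MlklAdi-KO mice 382, 388, 397 and 401 FPKM on NCD and 595, 487, 514, 551 and 511 FPKM on HFD. The groups did not overlap in either genotype, and the differences were 0.53 (SE 0.127, adjusted p = 0.00917) and 0.44 (SE 0.081, adjusted p = 0.00297). With no filter on low genes the adjusted p in WT mice was 0.066. The ratio of Ftl1 to Fth1 in each library, a measure added after the values were seen, was 1.43, 1.61, 1.66 and 1.78 in visWAT of NCD-fed WT mice and 2.39, 3.11, 2.77, 2.4 and 2.7 on HFD. This ratio of FPKM depends on the gene lengths used, while its log2 differences between groups do not. It rose by 0.72 on the log2 scale (two-sided exact permutation test, p = 0.00794, adjusted p = 0.0159 over 4 tests; all 5 HFD-fed mice above all 4 NCD-fed mice). In MlklAdi-KO mice it was 1.51, 1.38, 1.36 and 1.47 on NCD and 2.35, 2.88, 2.89, 1.65 and 1.6 on HFD, where all 5 HFD-fed mice were also higher (log2 difference 0.62, exact permutation p = 0.0397, adjusted p = 0.0529), but mice 156 and 157 lay close to the NCD-fed mice. Without mice 182 and 183 the difference in WT visWAT was 0.81 (exact permutation p = 0.0476, the smallest that 2 against 5 mice allow, before adjustment).

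Both sensors of the hepcidin pathway rose in visWAT, where hepcidin itself was near its floor. Tfr2 was 0.791, 1.18, 4.7 and 1.14 FPKM in NCD-fed WT mice, in the order 165, 180, 182 and 183, and 7.05, 3.83, 6.03, 7.61 and 7.72 FPKM in HFD-fed WT mice. Mouse 182 stood within the HFD-fed mice and the other 3 far below them. The difference was 1.47 (SE 0.33, adjusted p = 0.00687). In MlklAdi-KO mice the values were 1.78, 1.16, 1.12 and 2.02 FPKM on NCD and 6.7, 5.45, 4.64, 5.19 and 2.28 FPKM on HFD, with no overlap and a difference of 1.18 (SE 0.232, adjusted p = 0.00376). Hfe, an MHC class I-like protein that binds transferrin receptor 1, was 22.3, 24.3, 32.3 and 16.4 FPKM in NCD-fed and 37.9, 37.2, 32.6, 33.4 and 36.6 FPKM in HFD-fed WT mice (0.59, SE 0.163, adjusted p = 0.0182). In MlklAdi-KO mice it went from 23.6 ± 2.96 to 36.5 ± 6.77 FPKM (SD, n = 4 and 5; 0.60, SE 0.142, adjusted p = 0.00874), where mouse 151 on HFD (27.1 FPKM) was below mouse 199 on NCD (28 FPKM).

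The iron carrier and the ferroxidase fell. Trf was 1121, 1116, 914 and 669 FPKM in NCD-fed and 524, 404, 435, 419 and 477 FPKM in HFD-fed WT mice, and in MlklAdi-KO mice 1065, 905, 1048 and 1207 FPKM on NCD and 594, 412, 422, 708 and 553 FPKM on HFD. No HFD-fed mouse reached an NCD-fed mouse of its genotype, and the differences were −1.06 (SE 0.176, adjusted p = 0.00132) and −0.996 (SE 0.174, adjusted p = 0.00223). Cp was 16.7, 18.1, 18.3 and 11.1 FPKM on NCD and 7.51, 5.05, 5.92, 6.24 and 6.39 FPKM on HFD in WT mice. In MlklAdi-KO mice it was 18.6, 16.5, 17.4 and 18.3 FPKM on NCD and 5.21, 5.66, 5.99, 8.96 and 5.31 FPKM on HFD, and the diets did not overlap in either genotype. Its differences of −1.22 (SE 0.151, adjusted p = 0.000212) and −1.39 (SE 0.133, adjusted p = 0.000223) were the largest falls among the members. Cp overlaps the protein-coding gene Hps3 on the other strand, and whether the reads were counted by strand is not given in the sources used here. Hamp, Tfrc, Trf, Slc40a1, Slc11a2, Fth1 and Ftl1 overlap lncRNA or unclassified genes on the other strand, with the same limit.

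Ferroportin rose in WT visWAT, and the uptake genes gave smaller differences. Slc40a1 was 0.668, 0.511, 1.2 and 0.472 FPKM in NCD-fed WT mice, mouse 182 being the highest, and 1.53, 1.32, 1.64, 1.09 and 1.62 FPKM in HFD-fed WT mice, a rise of 0.52 (SE 0.13, adjusted p = 0.0112). At this low level the pseudocount of 1 weighs on the value, which was 0.99 with a pseudocount of 0.1, 0.97 with edgeR and 0.98 with DESeq2. In MlklAdi-KO mice it was 0.495, 0.843, 0.695 and 1.18 FPKM on NCD and 1.21, 1.34, 1.44, 1.74 and 0.789 FPKM on HFD, a difference of 0.35 (SE 0.141, adjusted p = 0.0684) that passed the test without mouse 199 (adjusted p = 0.0366) or 157 (adjusted p = 0.021). Slc11a2 (ENSMUSG00000023030, chr15:100285779-100322953, minus strand) was 4.01, 4.15, 3.62 and 3.55 FPKM in NCD-fed and 4.29, 4.81, 5.22, 4.28 and 4.39 FPKM in HFD-fed MlklAdi-KO mice, which did not overlap (0.21, SE 0.0676, adjusted p = 0.0315), and without mouse 197, 199, 152 or 153 the adjusted p was 0.0559 to 0.0872. In WT mice the difference was 0.06 (SE 0.194, adjusted p = 0.819), with the seminal vesicle-bearing mouse 183 at 8.13 FPKM and the other NCD-fed mice at 3.34, 3.76 and 4.06 FPKM. Without mouse 183 it was 0.30 (SE 0.0761, adjusted p = 0.0118). Tfrc was 1.77, 2.35, 4.91 and 2.04 FPKM in NCD-fed and 2.02, 2.39, 2.79, 2.24 and 2.64 FPKM in HFD-fed WT mice, with mouse 182 highest and a difference of −0.08 (SE 0.201, adjusted p = 0.787), and in MlklAdi-KO mice the difference was −0.30 (SE 0.117, adjusted p = 0.061). In MlklAdi-KO mice it was lower on HFD past the test with edgeR (adjusted p = 0.0385) and DESeq2 (adjusted p = 0.0285) and, in limma, without mouse 199 (adjusted p = 0.00895) or 153 (adjusted p = 0.0429).

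Hamp in visWAT was highest in mice 156 and 164, which also had the most Alb, Apoa1 and Ttr. It was 0.402, 0, 0.605, 0.202 and 3.5 FPKM in HFD-fed WT mice 154, 155, 161, 162 and 164 and 0, 0, 0, 41.7 and 1.29 FPKM in HFD-fed MlklAdi-KO mice 151, 152, 153, 156 and 157. The highest mouse, 156, had 504 reads of Hamp, and 3 of the 5 MlklAdi-KO libraries had none. The same mouse had the highest Alb (459.6 FPKM), Apoa1 (131 FPKM) and Ttr (98.2 FPKM) of all visWAT libraries. Mouse 164, with the second highest Hamp, followed it in these 3 genes (53.2, 23.5 and 16.2 FPKM). Of the 8 hepatocyte markers, Cyp2e1 was 1158 FPKM on average in visWAT of NCD-fed WT mice and made up most of the sum of the list there (858 to 1976 FPKM). That sum was 24 to 160.5 FPKM in HFD-fed WT mice, 1069 to 1257 FPKM in NCD-fed and 59.7 to 1229.9 FPKM in HFD-fed MlklAdi-KO mice. The part of hepatocyte RNA in these Hamp values was not tested.

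The limits of these diet differences lie in the NCD-fed WT group and the scaling. Without mice 182 and 183, 8 of 10 members passed in WT mice, 6 higher and 2 lower, with Slc11a2 added, and without mouse 156 the count in MlklAdi-KO mice was 7 of 9 tested. On the TPM scale the median difference of all genes in WT visWAT moved by 0.43 and the split over all genes from 3108 higher and 2239 lower to 3805 and 227, and the members then counted 6 higher and none lower, Trf being −0.58 (adjusted p = 0.241) and Cp −0.85 (adjusted p = 0.0685). This scale sets every library to the same sum. The FPKM sum was 564718 in visWAT of mouse 183 and 309820 in mouse 182, beside 243503 and 269807 in mice 165 and 180. In MlklAdi-KO visWAT the median moved by −0.01, and Trf (−1.01, adjusted p = 0.000843) and Cp (−1.51, adjusted p = 0.000183) stayed lower. The TPM scale without mouse 183 was not tested.

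Macrophage markers moved with diet in the same libraries. All 9 of them rose in WT visWAT and 8 of 9 in MlklAdi-KO visWAT. Their sum was 171 to 269 FPKM in NCD-fed and 1727 to 2516 FPKM in HFD-fed WT mice, and 233 to 407 and 640.1 to 2279 FPKM in MlklAdi-KO mice. MlklAdi-KO mice 156 and 157 had the lowest sums of the HFD-fed mice (707 and 640.1 FPKM) and also the lowest Ftl1 and the lowest ratios of Ftl1 to Fth1. Gpnmb, a marker of lipid-laden macrophages, rose by 6.49 in WT and 5.03 in MlklAdi-KO mice. Among the 8 adipocyte markers, 5 fell and 1 rose in WT mice and 3 fell and 2 rose in MlklAdi-KO mice. Of 5 tested erythroid markers 4 fell in WT visWAT and none passed in MlklAdi-KO visWAT, and of 3 tested lymphocyte markers 1 rose in each genotype. No epididymis marker passed. The part of these cell types in the ferritin, Trf and Cp values was not tested.

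**Figure D2:**
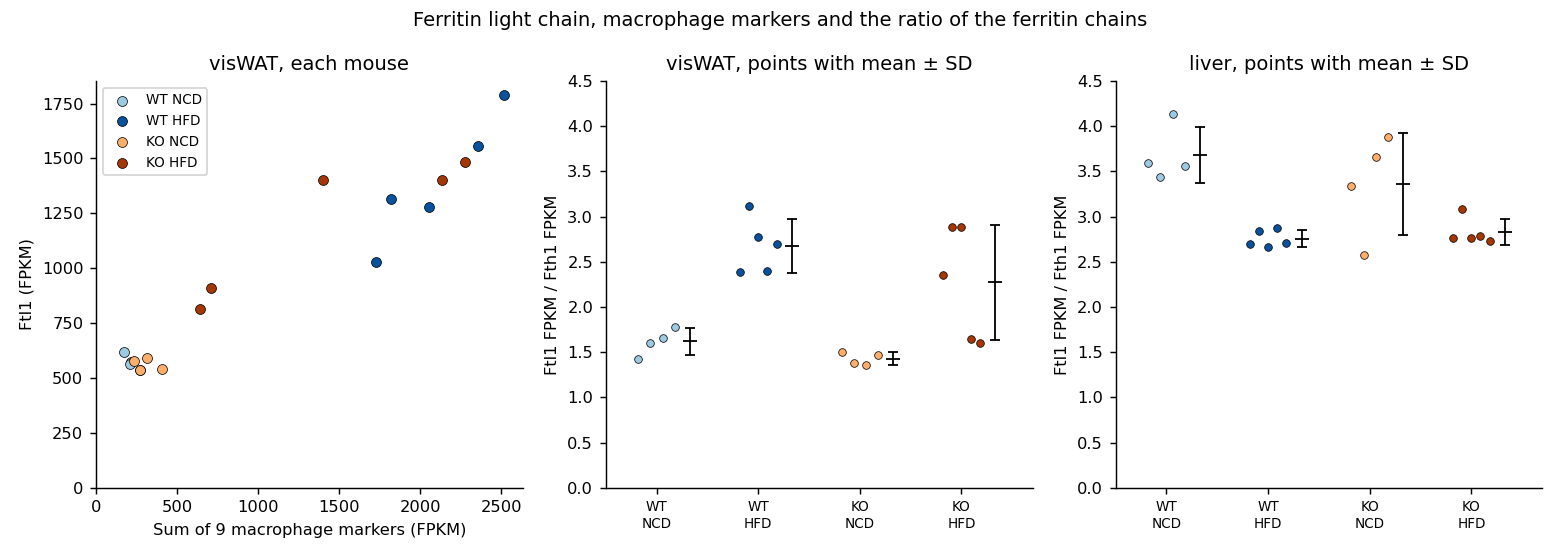
Left, Ftl1 FPKM against the summed FPKM of 9 macrophage markers in each visWAT library; middle and right, the ratio of Ftl1 to Fth1 FPKM in visWAT and liver, 1 point per mouse with mean ± SD. HFD-fed mice have higher Ftl1 and higher marker sums than NCD-fed mice, MlklAdi-KO mice 156 and 157 lie between, and the ratio is higher on HFD in visWAT and lower in liver of WT mice.

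In liver fewer members passed the test for diet than in visWAT. In WT mice 2 of 10 passed the test, 1 higher and 1 lower, against 25.3% of 13330 genes (13.2% and 12.1%). In MlklAdi-KO mice 2 passed, both higher, against 22.2% of 13149 genes (11.9% higher and 10.3% lower). Both shares are near those of all genes. The median difference of the members was 0.01 in WT and −0.03 in MlklAdi-KO mice.

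Ferroportin rose in both. Slc40a1 was 17.3, 16, 17.5 and 12.9 FPKM in NCD-fed and 24.3, 28.9, 25.2, 19.3 and 25.2 FPKM in HFD-fed WT liver, with no overlap and a difference of 0.59 (SE 0.121, adjusted p = 0.00692). In MlklAdi-KO liver it was 15.6, 13.1, 22.1 and 19.2 FPKM on NCD and 24.8, 25.5, 26.4, 27.3 and 21 FPKM on HFD (0.51, SE 0.139, adjusted p = 0.0259), where mouse 157 on HFD was below mouse 197 on NCD. The second call was lost when MlklAdi-KO mouse 166, 153 or 156 was left out (adjusted p = 0.0714, 0.0561 and 0.0583). Of 6 Kupffer cell markers, 2 (Cd5l and Vsig4) rose in WT liver and none in MlklAdi-KO liver. The sums of the 6 were 39.2 to 59.9 FPKM on NCD and 56 to 72.7 FPKM on HFD in WT mice, and 52 to 72.1 and 38.7 to 147 FPKM in MlklAdi-KO mice, and their part in the Slc40a1 values was not tested.

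Hepcidin was higher on HFD in MlklAdi-KO liver. Hamp was 1359, 509, 893 and 873 FPKM in NCD-fed mice 166, 179, 197 and 199 and 2955, 1535, 1822, 2545 and 1995 FPKM in HFD-fed mice 151, 152, 153, 156 and 157. All 5 HFD-fed mice were above all 4 NCD-fed mice, with a difference of 1.30 (SE 0.275, adjusted p = 0.00891). The two-sided exact permutation test gave p = 0.00794, the smallest possible, and 0.0635 after adjustment over 80 tests. The call held with each mouse left out in turn (adjusted p from 0.0054 to 0.0248). In WT liver it was 1047, 897, 1254 and 1262 FPKM on NCD and 896, 2019.6, 1857, 1356 and 1927 FPKM on HFD, where mouse 154 was as low as the lowest NCD-fed mouse. The difference there was 0.48 (SE 0.24, adjusted p = 0.174), and without mouse 154 it was 0.68 (SE 0.16, adjusted p = 0.02). Whether the diet acted differently in the 2 genotypes was tested with the interaction over all 18 livers: the difference of 0.82 (SE 0.389, adjusted p = 0.819) did not pass. The HFD groups of both genotypes overlapped, with a difference of 0.45 (SE 0.246, adjusted p = 0.491).

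The paralog Hamp2 shares 93.6% of its coding bases with Hamp. Its liver mean was lower on HFD in both genotypes, while that of Hamp was higher. In neither genotype did both genes pass the test. In WT liver Hamp2 was 15.4, 11.2, 56.1 and 21.4 FPKM on NCD and 2.3, 5.12, 8.5, 9.03 and 12.4 FPKM on HFD, a difference of −1.56 (SE 0.505, adjusted p = 0.0491), and in MlklAdi-KO liver it was 12.1, 27.9, 17.2 and 11.9 FPKM on NCD and 3.04, 5.27, 7.56, 5.52 and 18.7 FPKM on HFD (−1.16, SE 0.418, adjusted p = 0.0748). Its level was a small part of that of Hamp, so that reads exchanged between the copies could change Hamp2 more than Hamp. NCD-fed WT mouse 182 had the highest Hamp2, and without mice 182 and 183 the difference of Hamp2 in WT liver was −0.89 (adjusted p = 0.24).

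Among the remaining liver values, Hfe fell slightly in WT mice, from 18.4, 18.6, 18.5 and 18.3 FPKM on NCD to 15.4, 15.7, 15.9, 17.6 and 16.4 FPKM on HFD (−0.18, SE 0.0464, adjusted p = 0.0215), a call that was lost without mice 182 and 183 (adjusted p = 0.072), on the TPM scale and when mouse 154, 155 or 161 was left out. In MlklAdi-KO liver Hfe was 17.4, 16.4, 17.4 and 17.3 FPKM on NCD and 13, 18.2, 16.9, 14.1 and 13 FPKM on HFD (−0.19, SE 0.101, adjusted p = 0.214). Ftl1 was 1686, 1651, 2376 and 1717 FPKM in NCD-fed and 1521, 1528, 1445, 1634 and 1568 FPKM in HFD-fed WT liver, and Fth1 was 469.9, 480.4, 574 and 482 FPKM on NCD and 564, 538, 542, 568 and 579.7 FPKM on HFD. Neither passed the test (−0.26, adjusted p = 0.129, and 0.16, adjusted p = 0.131), although all 4 NCD-fed mice had more Ftl1 than all 5 HFD-fed mice. Without mouse 182 Fth1 was higher on HFD (0.23, adjusted p = 0.00497). The ratio of Ftl1 to Fth1 was 3.59, 3.44, 4.14 and 3.56 on NCD and 2.7, 2.84, 2.66, 2.88 and 2.7 on HFD, a fall of 0.42 on the log2 scale in which the groups did not overlap (two-sided exact permutation test, p = 0.00794, adjusted p = 0.0159 over 4 tests). This ratio was chosen after the values were seen, which the adjustment does not cover. Without mice 182 and 183, of which mouse 182 had the highest ratio, the difference was −0.35 (exact permutation p = 0.0476, the smallest possible with 2 against 5 mice, before adjustment). In MlklAdi-KO liver the ratio was 3.34, 2.58, 3.66 and 3.88 on NCD and 2.76, 3.08, 2.76, 2.79 and 2.73 on HFD, a log2 difference of −0.24 (exact permutation p = 0.0873). Tfr2 (101 to 169.6 FPKM), Trf (4858 to 6964 FPKM), Cp (117 to 163 FPKM), Slc11a2 (5 to 8.04 FPKM) and Tfrc (2.86 to 6.1 FPKM) passed in neither genotype. The lowest adjusted p among these was 0.0782, of Tfrc in WT mice, which passed with edgeR (adjusted p = 0.0479), DESeq2 (adjusted p = 0.0183) and without mouse 165 (adjusted p = 0.0295).

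**Figure D3:**
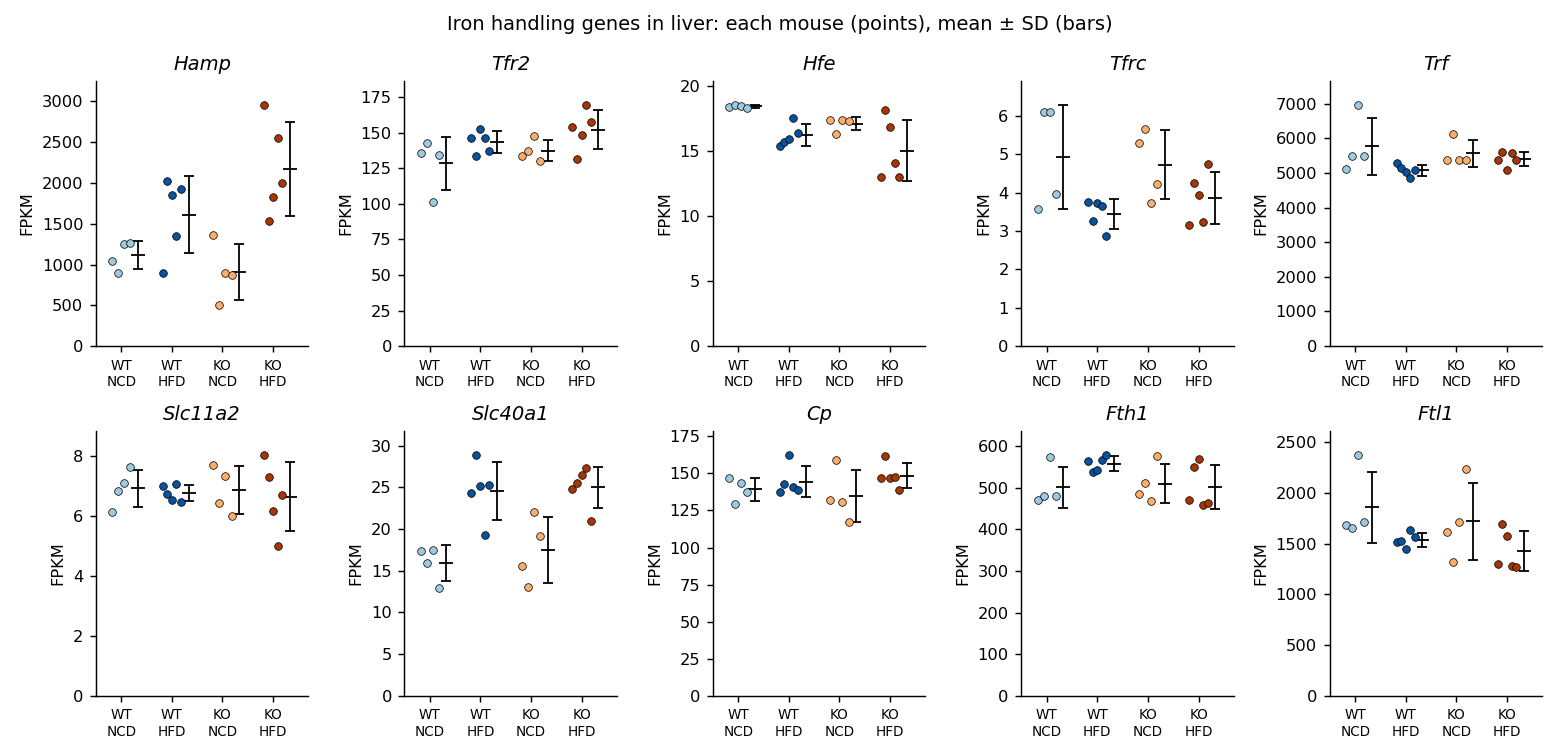
FPKM of each member in liver, with 1 point per mouse and the mean ± SD of each group beside the points. Slc40a1 is higher on HFD in both genotypes and Hamp clearly so in MlklAdi-KO mice, while Trf, Cp, Slc11a2 and Tfr2 overlap between the diets.

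The diet differences of visWAT and liver were then compared with each other in mice of 1 genotype, a comparison added after the values were seen. In WT mice 6 of 10 members differed between the tissues in their diet difference, 4 upward and 2 downward, against 40% of 14746 genes (21.8% and 18.2%). In MlklAdi-KO mice 6 of 10 did, again 4 and 2, against 40.6% of 14571 genes (21.2% and 19.4%). The 6 were the same in both: Tfr2, Fth1, Ftl1 and Hfe had a higher diet difference in visWAT than in liver and Trf and Cp a lower one. For Ftl1 the difference of differences was 1.51 (SE 0.21, adjusted p = 2.81e-05) in WT and 1.32 (SE 0.258, adjusted p = 0.000802) in MlklAdi-KO mice, and for Cp −1.28 (SE 0.172, adjusted p = 2.06e-05) and −1.54 (SE 0.166, adjusted p = 5.01e-06). Hfe, which was higher on HFD in visWAT and on average lower in liver, gave 0.77 (SE 0.174, adjusted p = 0.00214) and 0.79 (SE 0.181, adjusted p = 0.0027). For Slc40a1, whose mean was higher on HFD in both tissues, it was −0.07 (SE 0.183, adjusted p = 0.791) and −0.16 (SE 0.206, adjusted p = 0.57). With the mouse as a block, Fth1 in WT mice no longer passed (adjusted p = 0.11), which left 5 members in WT and 6 in MlklAdi-KO mice. On the TPM scale the median of all genes moved by 0.39 in WT mice, with 4017 genes upward and 576 downward, and Cp, Fth1 and Trf no longer passed there. That fit holds the visWAT libraries of mice 182 and 183, whose FPKM sums were the highest of their group. In MlklAdi-KO mice Trf was lost with no filter (adjusted p = 0.0671) and Fth1 with edgeR (adjusted p = 0.0658). Fth1 in WT mice was also lost when any of 12 libraries was left out (adjusted p of at most 0.0956). Without the visWAT library of mouse 156, Hamp passed in MlklAdi-KO mice (−1.31, adjusted p = 0.0218), and Slc11a2 passed in WT mice without that of mouse 183 (0.33, adjusted p = 0.0106) and Tfrc without that of mouse 182 (0.55, adjusted p = 0.0257).

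**Figure D4:**
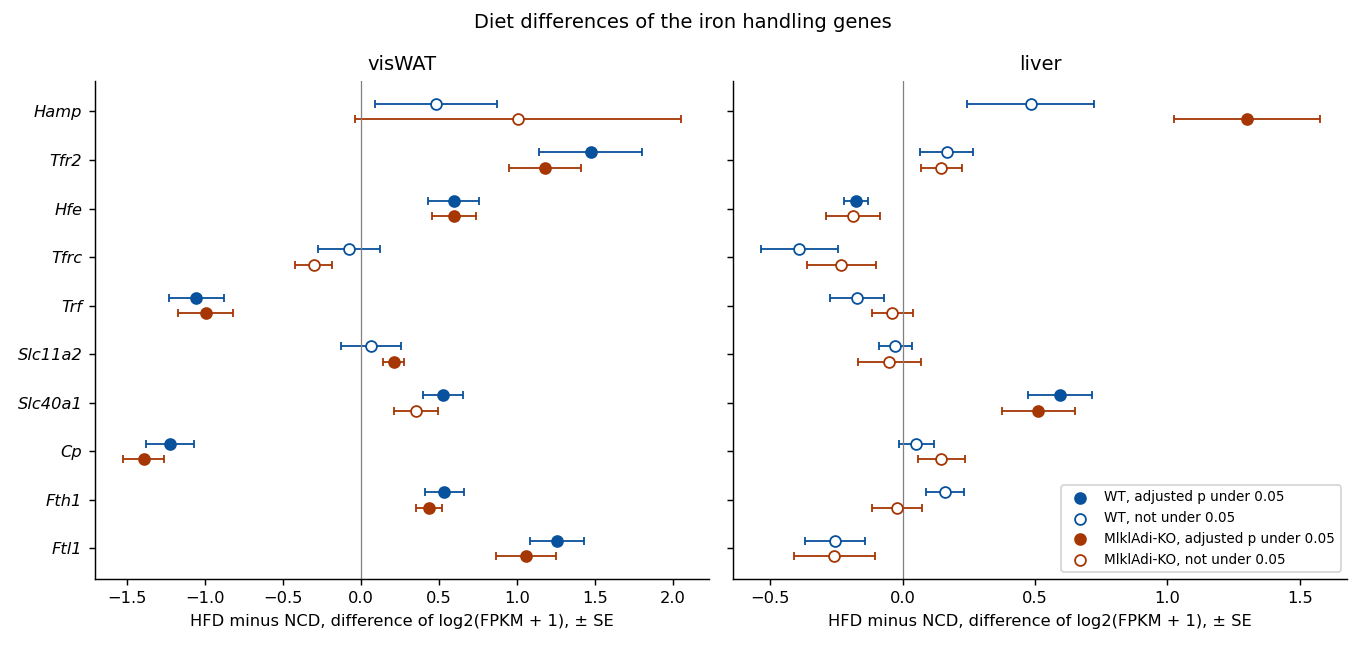
Difference of mean log2(FPKM + 1), HFD minus NCD, with its SE for each member in visWAT and liver (the axes differ in range). Blue points are WT and brown points MlklAdi-KO mice, filled where the adjusted p was under 0.05; 7 members are filled in visWAT and 2 in liver in each genotype.

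The deletion of Mlkl in adipocytes was compared within each diet and tissue, which asks whether it altered iron handling in the fat or in the liver of the same mice. No member passed the test between MlklAdi-KO and WT mice in HFD-fed visWAT, NCD-fed visWAT, HFD-fed liver or NCD-fed liver, where 0.0215%, 0%, 0.197% and 0.00758% of all genes did, nor in the interaction of genotype with diet in visWAT or liver (0% and 0.0151%). This covers 59 limma tests, none with an unadjusted p under 0.05. Hamp in NCD-fed visWAT was under the filter. No member passed with edgeR or DESeq2 either.

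The lowest adjusted p was 0.339, for Tfr2 in HFD-fed visWAT, at 6.45 ± 1.61 FPKM in WT and 4.85 ± 1.63 FPKM in MlklAdi-KO mice (SD, n = 5 each), a difference of −0.37 (SE 0.233). Ftl1 in HFD-fed visWAT was 1393 ± 291 FPKM in WT and 1202 ± 314 FPKM in MlklAdi-KO mice, a difference of −0.23 (SE 0.211, adjusted p = 0.501). In HFD-fed liver Fth1 was 559 ± 17.7 FPKM in WT and 503 ± 53 FPKM in MlklAdi-KO mice (−0.16, SE 0.0709, adjusted p = 0.398). The exact permutation test gave an unadjusted p under 0.05 for 2 of 40 tests between genotypes, Trf in HFD-fed liver (p = 0.0238) and Hfe in NCD-fed liver (p = 0.0286, the smallest that 4 against 4 mice allow), and neither held after adjustment over 80 tests (0.0907 and 0.104). These tests do not show that the genotypes were alike: at an SE of 0.211, a difference of Ftl1 of the size seen in HFD-fed visWAT was not detectable with 5 mice per group.

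A further 7 lists of iron and haem genes were read in the same fits, and they placed the members among their partners. Their counts are to be read beside the share of all genes past the test, 37.8% in WT and 43.7% in MlklAdi-KO visWAT and 25.3% and 22.2% in liver. The text names at most the 3 largest differences past the test in each direction. Haem and haemoglobin scavenging and breakdown, the route by which iron is won back from haem, counted 8 of 12 genes higher and 1 lower on HFD in WT visWAT and 7 of 12 higher in MlklAdi-KO visWAT. The medians were 0.88 and 0.53, beside −0.01 and 0.01 for all genes. Hmox1, the inducible haem oxygenase, went from 15.8 ± 8.68 to 67.4 ± 12.8 FPKM in WT mice (SD, n = 4 and 5), a rise of 2.13 (SE 0.279, adjusted p = 0.00031), and rose by 1.66 (SE 0.281, adjusted p = 0.00191) in MlklAdi-KO mice. Blvra, a biliverdin reductase, rose by 1.31 and 1.35 (adjusted p = 0.000354 and 0.000182), and Lrp1, a receptor for haem bound to haemopexin among many other ligands, by 1.27 in WT mice (adjusted p = 9.87e-05). Slc48a1, a haem transporter, rose by 0.97 in MlklAdi-KO mice (adjusted p = 0.000153). Flvcr2, a transporter of the same family as the haem exporter, fell in WT mice (−0.60, adjusted p = 0.0272). In liver 1 gene of this list rose in WT mice, haptoglobin (Hp, 0.62, adjusted p = 0.00213), and 2 rose and 1 fell in MlklAdi-KO mice.

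The iron sensors that read the hairpins shown above also differed by diet in visWAT. Aco1 and Ireb2, which encode iron regulatory proteins 1 and 2, fell in both genotypes. The difference of Aco1 was −0.72 (SE 0.218, adjusted p = 0.027) in WT and −0.53 (SE 0.123, adjusted p = 0.00794) in MlklAdi-KO mice and that of Ireb2 −0.23 (SE 0.0706, adjusted p = 0.0294) and −0.25 (SE 0.0683, adjusted p = 0.0165). Fbxl5, whose protein marks these regulators for degradation when iron is present, rose by 0.37 (SE 0.0658, adjusted p = 0.00195) and 0.35 (SE 0.0649, adjusted p = 0.00271). On the TPM scale the value of Ireb2 in WT visWAT was 0.18 (adjusted p = 0.56), so that its direction there depended on the scaling. The median of all genes moved by 0.43 on that scale, a limit for every fall of a listed gene in WT visWAT, Aco1 and Ncoa4 included. In liver Aco1 was higher on HFD in both genotypes by 0.20 (SE 0.0488, adjusted p = 0.0151) and 0.27 (SE 0.0712, adjusted p = 0.0245). Ncoa4, the receptor that delivers ferritin to lysosomes, fell in visWAT (difference −0.49, SE 0.153, adjusted p = 0.0319 in WT and −0.66, SE 0.127, adjusted p = 0.00345 in MlklAdi-KO mice) and was the only one of 3 tested genes of ferritin turnover to pass there; none passed in liver.

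Genes of iron uptake and reduction changed in both tissues. In visWAT, 3 of 8 rose and 1 fell in WT mice, and 2 of 9 rose and 3 fell in MlklAdi-KO mice. Steap3, an endosomal ferrireductase, rose by 1.38 (SE 0.0832, adjusted p = 2.43e-06) and 0.75 (SE 0.196, adjusted p = 0.0134), while Steap4 fell, with differences of −0.60 and −0.69 (adjusted p = 0.0261 and 0.0191). Scara5, a receptor for ferritin light chain, rose in WT visWAT (0.79, adjusted p = 0.00615). In liver 5 of 8 rose in each genotype, and 2 fell in WT and 1 in MlklAdi-KO mice. Lcn2, which binds iron-carrying siderophores, went from 1.44 to 12.1 FPKM on average in WT and from 0.783 to 14.3 FPKM in MlklAdi-KO mice with differences of 2.67 (SE 0.385, adjusted p = 0.00123) and 2.26 (SE 0.699, adjusted p = 0.044). Steap4 rose there by 1.06 (SE 0.0947, adjusted p = 0.000119) and 1.23 (SE 0.149, adjusted p = 0.000554), the reverse of visWAT.

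Of the hepcidin regulators, none of 17 tested rose in visWAT, while 3 fell in WT mice and 6 in MlklAdi-KO mice, among them Cebpa (−0.91 and −0.80) and Neo1 (−0.42 and −0.58). These counts are no larger a share than the 37.8% and 43.7% of all genes that passed. Cebpa averaged 394 FPKM in NCD-fed WT visWAT, above the 229 FPKM of NCD-fed WT liver. In liver 2 of 19 rose and 3 fell in WT mice, and 2 rose and 2 fell in MlklAdi-KO mice. Hjv, the coreceptor hemojuvelin of bone morphogenetic protein (BMP) signalling, rose in WT liver by 0.48 (SE 0.142, adjusted p = 0.0347), from 53 to 73.4 FPKM on average. In MlklAdi-KO liver, where it did not pass the test, Hjv averaged 43.9 FPKM on NCD and 66.2 FPKM on HFD. Cebpa, a transcription factor of hepatocytes and adipocytes that acts on the Hamp promoter, rose in liver by 0.50 (SE 0.132, adjusted p = 0.022) in WT and 0.53 (SE 0.0833, adjusted p = 0.00207) in MlklAdi-KO mice. Atoh8, a target of BMP signalling, fell, with differences of −1.04 (SE 0.136, adjusted p = 0.000727) and −0.72 (SE 0.191, adjusted p = 0.024). Smad6, another such target, rose in MlklAdi-KO liver by 0.33 (SE 0.0969, adjusted p = 0.0355). Id1 and Smad7, also targets, passed in liver of neither genotype, with differences of −1.27 and 0.30 for Id1 (adjusted p = 0.0912 and 0.398) and −0.58 and 0.34 for Smad7 (adjusted p = 0.0535 and 0.0907). Of 10 acute phase genes, which respond to inflammatory signals as Hamp does, 4 rose and 3 fell in WT liver and 1 rose and 2 fell in MlklAdi-KO liver. Saa1 rose by 2.91 (SE 0.274, adjusted p = 0.00015) and 2.31 (SE 0.56, adjusted p = 0.0162), whereas Fga and Fgb fell in both.

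Haem synthesis and mitochondrial iron genes gave a few changes. Alas1, the rate-limiting enzyme of haem synthesis in liver, went from 63.1 ± 22.7 to 285 ± 14.7 FPKM in WT liver (SD, n = 4 and 5), a rise of 2.24 (SE 0.236, adjusted p = 0.000268), and the difference in MlklAdi-KO liver was 0.71 (SE 0.232, adjusted p = 0.0534). Alad, the next enzyme of the route, fell in visWAT, with differences of −1.18 (SE 0.115, adjusted p = 4.66e-05) and −0.83 (SE 0.212, adjusted p = 0.0122). Of 13 mitochondrial genes, 2 rose and 4 fell in WT visWAT and 2 fell in MlklAdi-KO visWAT, while in liver 3 rose and 2 fell in WT and 4 rose and 1 fell in MlklAdi-KO mice, against 37.8% and 43.7% of all genes in visWAT and 25.3% and 22.2% in liver. Fdx1, a ferredoxin, fell in visWAT (−0.80 and −0.59) and rose in liver (0.53 and 0.41). Glrx5, a glutaredoxin of iron-sulphur cluster assembly, rose in liver (0.54 and 0.44). No gene of the 7 lists passed in any comparison of the genotypes or in the interaction.

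**Figure D5:**
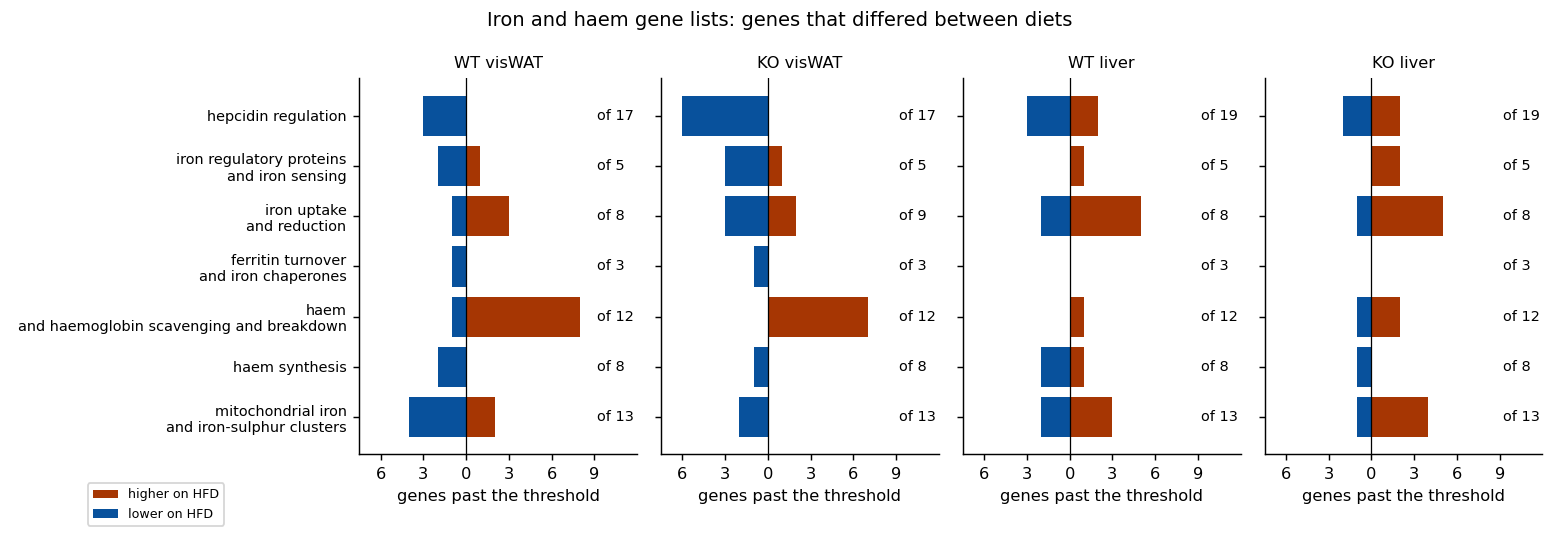
Number of genes past the test (adjusted p under 0.05) in each of 7 lists of iron and haem genes, higher on HFD to the right and lower to the left, with the number tested beside each bar, in visWAT and liver of WT and MlklAdi-KO mice. The 8 of 12 and 7 of 12 haem scavenging genes that rose in visWAT are the longest bars.

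Genes whose pattern was most like a member were sought by Pearson's r of log2(FPKM + 1), as a description over libraries that share diet and genotype. For Hamp over 18 liver libraries and 10262 genes they included Chmp1a (r = 0.85), Rrm2 (0.83), Amy1 (0.82) and Adarb1 (0.82). After the group means were subtracted, r was 0.68, 0.52, 0.52 and 0.48. For Tfrc over 18 visWAT libraries and 11194 genes they were Haus7 (r = 0.81), Zfp467 (0.80), Tomm70a (0.78), Acsf2 (0.77) and Tmem268 (0.76), and r within groups was 0.94, 0.80, 0.80, 0.82 and 0.77. WT NCD mouse 182 had the highest Tfrc of all visWAT libraries, and the values without it were not computed.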

How the data were processed

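RNA was extracted from visWAT and liver, selected for polyadenylated transcripts and sequenced on a NovaSeq instrument. The authors trimmed reads with fastp, aligned them to mm39 with HISAT2 and counted them per gene with featureCounts 1.5.0-p3. Strand settings and the annotation release are not given in the sources used here. The deposited FPKM values cover 56748 genes and were used for levels and main tests. The deposited counts cover the genes of the comparison tables only. There, 100% of FPKM values came back as whole reads (tolerance 0.01), so counts were recovered from FPKM for edgeR and DESeq2. Columns of the authors' own fold changes and p-values, and 72 columns of per-sample values repeated beside them, were not used.

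Differences were tested with limma 3.58.1 in R 4.3.3 on log2(FPKM + 1) with a trended prior, 2 groups per fit (4 for interactions), a mean of at least 0.5 FPKM and Benjamini-Hochberg adjustment over all genes tested. Members were also tested by two-sided exact permutation of mice, whose smallest possible p is 0.0286 for 4 against 4 mice and 0.00794 for the others, with adjustment over 80 tests. No member passed after this adjustment (lowest 0.0635). The alternatives tried were no filter or one at a mean of 1 FPKM, a pseudocount of 0.1, the TPM scale, edgeR 4.0.16, DESeq2 1.42.0, each mouse left out, mice 182 and 183 left out, 1 fit of the 4 groups of a tissue, and the mouse as a block. Scripts were tested on simulated data.

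The members and gene lists were chosen with earlier results of these data known. Genes named from the lists are the 3 largest differences past the test in each direction at most, with marker genes and hepcidin targets named where a sentence turns on them, chosen after their values were seen. Visceral fat and liver with the same number came from the same mouse. Their deviations from group means correlated at −0.0783 to 0.219 over 18 mice, and 7 of 18 matched best with their own number. No 2 libraries of a group agreed within sampling noise (chi-square per gene of at least 9.82 in 64 pairs). Within a tissue each library is 1 mouse, so p-values measure the spread between mice. The main fits across tissues treated the visWAT and liver libraries of a mouse as independent. Results with the mouse as a block are given beside them. IREs were searched in the GRCm39 sequence with GENCODE vM39 transcripts. A few results on single genes and sequences are not reported here.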

Additional observations from a re-analysis of the deposited data

Results flagged for a closer look

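The mice of each of 8 groups were searched for a value of a member that stands apart from the rest by Dixon's 95% criterion, which chance meets in about 1 of 20 groups, and 12 of 80 member and group pairs did. In visWAT, Hamp was 3.5 FPKM in HFD-fed WT mouse 164 and 41.7 FPKM in HFD-fed MlklAdi-KO mouse 156, the mice with the highest Alb. Mouse 156 also had the highest Cp of its group at 8.96 FPKM. Tfr2 was 4.7 FPKM in visWAT of NCD-fed WT mouse 182, and the liver of that mouse had 574 FPKM of Fth1 and 2376 FPKM of Ftl1. NCD-fed WT mouse 183, whose visWAT held seminal vesicle transcripts, had 8.13 FPKM of Slc11a2. NCD-fed MlklAdi-KO mouse 199 had low Tfrc (2.35 FPKM) and high Hfe (28 FPKM) in visWAT, and mouse 179 of that group high Trf (6138 FPKM) and low Hfe (16.4 FPKM) in liver. Cp was 163 FPKM in liver of HFD-fed WT mouse 161.

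The diet difference differed between visWAT and liver for 6 members in each genotype, against 40% of all genes in WT and 40.6% in MlklAdi-KO mice (limma, visWAT minus liver of the difference HFD minus NCD). In WT mice the values were 1.31 for Tfr2, −0.88 for Trf, 0.38 for Fth1, 1.51 for Ftl1, −1.28 for Cp and 0.77 for Hfe, with adjusted p from 2.06e-05 (Cp) to 0.0462 (Fth1). Fth1 did not pass with the mouse as a block (adjusted p = 0.11), and Fth1, Trf and Cp did not on the TPM scale. In MlklAdi-KO mice they were 1.03, −0.96, 0.46, 1.32, −1.54 and 0.79 in the same order, with adjusted p from 5.01e-06 (Cp) to 0.00769 (Fth1). Trf did not pass with no filter (adjusted p = 0.0671), nor Fth1 with edgeR (adjusted p = 0.0658).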

How the results depend on the processing

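For the diet in WT liver it was 1 in place of 2 on the TPM scale and with 4 groups in 1 fit, and 1 to 3 with single mice left out. For the diet in MlklAdi-KO liver it was 1 in place of 2 without a filter and 1 to 2 with single mice left out. In visWAT the diet count was 6 to 8 in WT and 6 to 9 in MlklAdi-KO mice under the other settings (7 to 8 and 6 to 8 with single mice left out), between tissues it was 6 to 10 on NCD and 8 to 10 on HFD, and it was 0 for every comparison of genotypes and interaction under every setting run. With the mouse number as a replicate block, the count was 9 and 8 for the tissues of NCD- and HFD-fed WT mice and 5 and 6 for tissue by diet in WT and MlklAdi-KO mice; within 1 tissue each mouse appears once, so that no paired analysis was possible there. On the TPM scale the diet difference in WT visWAT turned to 0.18 for Ireb2, and the tissue difference to 0.16 for Fth1 on NCD and to 0.98 for Fth1, 0.93 for Ftl1, 0.58 for Slc11a2 and 0.52 for Tfrc on HFD; the shift of the median of all genes is given beside these comparisons. Depth limited only visWAT Hamp, read from 0 to 6 times per library in NCD-fed WT mice.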
